A study of Homo sapiens with 21 samples.

Results

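The transcriptomes of irradiated IMR90 cells in which CDK4 and CDK6 were knocked down together were compared with those of irradiated cells that received a non-targeting siRNA. The comparison took the 3 libraries labelled as receiving siRNA against both kinases and the 6 control libraries, 3 with each of 2 non-targeting siRNAs called NT3 and NT4 in the sample titles, out of 21 libraries in the series. Values were normalised counts, that is reads per gene divided by a size factor of the library. Genes with a normalised count of at least 10 in at least 3 of these 9 libraries were tested, which held for 11347 of the 16383 genes in the deposited table. IMR90 is an established line of human lung fibroblasts, and the groups differed in the siRNA received. All 9 libraries shared irradiation, used here to bring the cells into senescence, siRNA transfections on days 4 and 7 thereafter (5 nM), and harvest on day 10, followed by TRIzol extraction and poly(A) capture. Each control counted equally in a mean, and each was also used alone. The CDK4 knockdown and CDK6 knockdown groups, 3 libraries each under the same schedule, served to show where the dual knockdown differed from the single ones. Proliferating cells, also 3 libraries, are cited for the levels of MKI67 and LMNB1. For them the labels give no siRNA, transfection days or harvest day. Irradiation, transfection and time in culture therefore cannot be told apart in that contrast. The labels give no siRNA sequence and do not say whether 5 nM was the total or the dose per siRNA in the dual knockdown, so effects outside the targets and effects of the siRNA amount cannot be told apart from those of the targets. The labels do not say whether the 3 libraries of a group came from separate cultures, so p-values measure the spread between libraries, which may be technical.

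CDK4 and CDK6 are the kinases that the D-type cyclins activate in early G1. Together with these cyclins they phosphorylate the retinoblastoma protein and its relatives, which releases E2F factors to transcribe genes of DNA replication, while CDK inhibitors such as p16, p15 and p21 restrain the kinases. Senescent fibroblasts have left the cell cycle yet keep high D cyclin levels, secrete cytokines, chemokines and proteases, collectively the senescence-associated secretory phenotype, and can express interferon-stimulated genes. Promoters of replication genes often carry E2F sites, those of late cell cycle genes a cell cycle homology region (CHR) bound by the DREAM and MuvB complexes, those of interferon targets an interferon-stimulated response element (ISRE), and those of inflammatory genes NF-kB sites.

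The 4 groups of genes with the lowest median fold change after dual knockdown, against the mean of both controls, were the secreted cytokines and chemokines, the genes of G2 and mitosis, the interferon-stimulated effectors and the genes of DNA replication. One promoter of each is shown, that of the member with the largest fall among those that hold the motif searched in its group. The promoters run from 250 bases before to 50 bases after the RefSeq start site on GRCh38.p14, 5′ to 3′ on the strand of the gene, with motif matches in capitals. DTL lies on the plus strand (chr1:212035498-212035797), DLGAP5 on the minus strand (chr14:55191536-55191835), IFI44L on the plus strand (chr1:78620198-78620497) and CXCL5 on the minus strand (chr4:73998628-73998927). In DTL the capitals mark an E2F motif, in DLGAP5 the CHR motif, once of 3 times on the opposite strand, in IFI44L the ISRE motif at 2 places, and in CXCL5 an NF-kB motif.
DTL: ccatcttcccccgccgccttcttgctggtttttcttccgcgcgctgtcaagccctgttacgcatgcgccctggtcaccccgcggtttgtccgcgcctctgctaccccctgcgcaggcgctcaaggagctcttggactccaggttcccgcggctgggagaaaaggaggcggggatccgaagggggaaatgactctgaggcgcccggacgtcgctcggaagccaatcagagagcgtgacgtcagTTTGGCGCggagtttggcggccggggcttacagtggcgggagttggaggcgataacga
DLGAP5: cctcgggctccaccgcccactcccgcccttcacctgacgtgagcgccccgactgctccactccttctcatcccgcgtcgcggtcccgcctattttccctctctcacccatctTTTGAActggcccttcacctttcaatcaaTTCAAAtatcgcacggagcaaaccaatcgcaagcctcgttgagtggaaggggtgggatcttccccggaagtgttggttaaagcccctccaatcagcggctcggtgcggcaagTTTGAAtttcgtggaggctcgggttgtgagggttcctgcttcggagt
IFI44L: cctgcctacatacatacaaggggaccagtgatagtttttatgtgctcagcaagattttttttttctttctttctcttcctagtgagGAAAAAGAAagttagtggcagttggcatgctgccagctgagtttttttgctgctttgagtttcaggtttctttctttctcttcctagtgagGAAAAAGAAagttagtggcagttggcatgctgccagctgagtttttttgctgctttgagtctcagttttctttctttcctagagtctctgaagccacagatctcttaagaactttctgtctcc
CXCL5: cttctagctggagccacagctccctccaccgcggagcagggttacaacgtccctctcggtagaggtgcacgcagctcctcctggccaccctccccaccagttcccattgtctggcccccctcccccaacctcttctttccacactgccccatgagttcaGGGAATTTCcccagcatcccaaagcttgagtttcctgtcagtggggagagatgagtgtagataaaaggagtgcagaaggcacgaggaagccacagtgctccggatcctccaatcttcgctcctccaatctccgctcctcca

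DTL encodes the substrate receptor of a ubiquitin ligase that removes replication licensing factors, DLGAP5 a spindle protein, IFI44L an interferon-induced protein and CXCL5 a neutrophil chemokine. Counted from the start site, the DTL match begins at -8, the DLGAP5 matches at -138, -109 and 4, the IFI44L matches at -164 and -73, and the CXCL5 match at -91. Motifs were searched on both strands as TTTCCCGC or TTTGGCGC (E2F), TTTGAA (CHR), GAAANNGAA (ISRE) and GGGNNTTTC (NF-kB). Overlap between matches of different motifs was not measured. RefSeq promoters were found for 9236 of the 11347 tested genes. The E2F motif was in 16 of 37 promoters of replication genes called lower (43.2%), against 3.77% of tested genes and 2.31% of all 27305 promoters in the table. The CHR motif was in 34 of 49 promoters of G2 and mitosis genes called lower (69.4%), against 9.87% and 15.4%. An ISRE motif was in 20 of 27 promoters of interferon-stimulated effectors called lower (74.1%), against 6.43% and 8.29%, and an NF-kB motif in 8 of 17 promoters of cytokines and chemokines called lower (47.1%), against 4.68% and 4.73%. Each motif was most frequent in its own group: the E2F motif was in 3 of the 49 G2 and mitosis promoters and the CHR motif in 1 of the 37 replication promoters. The groups were not fully separate. The ISRE motif was in 4 of 17 cytokine promoters (23.5%) and 7 of 49 G2 and mitosis promoters (14.3%). The NF-kB motif was in 5 of 37 replication promoters (13.5%). These are matches of letters and not measured binding sites.

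**Figure D1:**
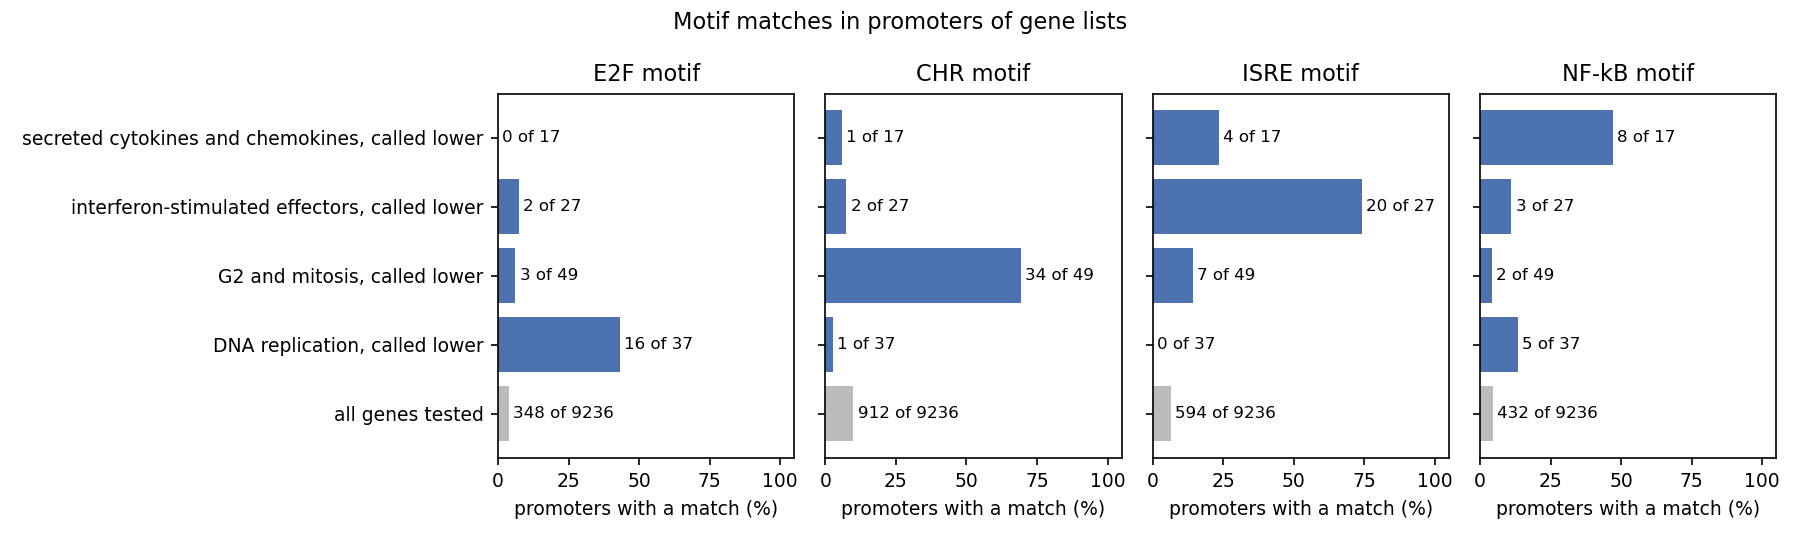
Share of promoters (x axis, percent) with a match to each of 4 motifs, for all tested genes (grey) and for the members called lower in 4 gene lists (blue), with the counts beside the bars. The longest bar in each panel is that of a different list, from 43.2% for the E2F motif in replication genes to 74.1% for the ISRE motif in interferon-stimulated effectors.

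Reads in genes numbered 15466207 to 17044175 per dual knockdown library and 12892442 to 21822152 per control library. The share of reads in the top 10 genes was 8.52 to 9.61% after dual knockdown and 7.16 to 7.98% in the controls. NT3 replicate 3 lay farthest from its group mean, with an SD of log2 deviations of 0.324 against 0.169 to 0.232 in the other 8 libraries, and the main counts are also given without it below. All 10 fibroblast markers were tested, and their summed normalised count was 683300 to 868400 after dual knockdown and 453200 to 563900 in the controls. Of the markers of other cell types, 4 of 8 epithelial, 3 of 7 endothelial and 2 of 8 leukocyte genes passed the filter. KRT5, KRT14, CD3E and CD3D were at 0 in all 3 dual libraries and CDH5 in 2 of them, while PTPRC was at 1.10 to 2.18 and EPCAM at 16.4 to 28.0 there. Summed marker counts were 542 to 596 against 311 to 384 for epithelial, 3441 to 3695 against 2059 to 3723 for endothelial and 22.0 to 25.4 against 36.9 to 82.4 for leukocyte markers. Most of the epithelial sum came from KRT19, and nearly all of the endothelial sum from TEK. VWF, another endothelial marker, had 14, 7 and 14 reads in the dual libraries. COL1A1, described below, made up a large part of the fibroblast sum. The part of the shifts in these sums in the results below was not tested. In bulk RNA, fewer cells of a kind (cycling cells, for example) and less RNA per cell cannot be told apart.

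Both targets were low after dual knockdown. CDK4 (ENSG00000135446, chr12:57747727-57752310) had normalised counts of 122.5, 115 and 115 after dual knockdown, 1157, 1166 and 1334 with NT3 and 1356, 1250 and 1223 with NT4. The dual libraries kept 9.41% of the control mean (117 ± 4.41, SD, n = 3, against 1248 ± 82.9, n = 6). CDK6 (ENSG00000105810, chr7:92604921-92836573) stood at 5372, 5689 and 4147 with NT3, 4458, 4230 and 4339 with NT4 and 930.4, 975 and 998 after dual knockdown, and 20.6% remained (968 ± 34.4, n = 3, against 4706 ± 655, n = 6). For both genes no dual library came near a control library, and the exact two-sided permutation p was 0.0119, the smallest that 84 splits of 9 libraries allow. Each target was also set against its own single knockdown. CDK4 did not pass the threshold against the CDK4 knockdown (log2 difference 0.12 ± 0.07 SE, adjusted p = 0.21 by limma), while CDK6 was higher in the dual than in the CDK6 knockdown (930.4, 975 and 998 against 834, 727 and 759.7; log2 difference 0.33 ± 0.09 SE, adjusted p = 0.022 by limma).

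The dual knockdown shifted a large part of the transcriptome, with deep falls and shallower rises. With limma on log2(normalised count + 1) and a threshold of 0.05 on Benjamini-Hochberg adjusted p-values, 2613 genes (23.0%) were higher and 2485 (21.9%) lower than the mean of both controls. Past both NT3 and NT4 alone and the mean in 1 direction were 1309 higher (11.5%) and 1431 lower genes (12.6%). Among genes that moved by more than 1 on the log2 scale, 55 were higher and 594 lower. The 3 dual libraries did not overlap the 6 controls at 3264 genes (28.8%). NT4 itself differed from NT3 at 3217 genes, and 124 genes were past the threshold in opposite directions against the 2 controls. Without NT3 replicate 3, the calls against the mean numbered 5924 in place of 5098, and those against each control 3557 in place of 2740. All fold changes below are on the log2(normalised count + 1) scale, which understates changes at low counts.

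Among genes past the threshold against the mean and each control, without overlap and with a higher group mean above 480.3, the median gene mean, the 12 largest falls were IFI44L, CXCL8, CDK4, CXCL1, OAS2, BIRC5, RRM2, MX1, CXCL10, OAS3, PTGS2 and MKI67. They comprised, besides CDK4, 3 chemokine genes, 4 interferon-induced genes, the mitotic genes BIRC5 and MKI67, the ribonucleotide reductase subunit RRM2 and PTGS2, which encodes the prostaglandin-forming enzyme COX-2. PTGS2 had 211, 211 and 196 in the dual knockdown libraries against 1977, 2262 and 1751 with NT3 and 1008, 989.7 and 929 with NT4 (log2 change -2.75 ± 0.15 SE, adjusted p = 4.51e-12 by limma). The dual libraries sat close together, under NT4 libraries that were themselves under the NT3 libraries. The 12 largest rises were GALNT15, PITPNM3, ADAMTS2, LRRC2, MEDAG, LMOD1, CPA4, OXTR, TNFRSF10D, RELN, GFRA1 and VSIR, between 1.17 and 1.65 on the log2 scale. Of these, only ADAMTS2, MEDAG, CPA4 and TNFRSF10D were also past the threshold above the CDK6 knockdown. LMOD1 and VSIR were lower than in the CDK6 knockdown, and the others did not pass against it. GALNT15, a Golgi enzyme that starts O-linked glycans, had 1943, 1967 and 1872 after dual knockdown, 735, 614 and 521 with NT3 and 606.5, 664 and 557 with NT4 (log2 change 1.65 ± 0.08 SE, adjusted p = 9.91e-13 by limma). CPA4, a secreted carboxypeptidase, stood at 1735, 1531 and 1765 with NT3, 1159, 1219 and 1105 with NT4 and 3725, 3697 and 3584 after dual knockdown (log2 change 1.40 ± 0.06 SE, adjusted p = 3.39e-13 by limma). The oxytocin receptor gene OXTR had 743, 861.5 and 884 in the dual knockdown libraries against 302, 248 and 349.5 with NT3 and 376, 359 and 344 with NT4 (log2 change 1.34 ± 0.10 SE, adjusted p = 3.77e-10 by limma). In each of these 3 genes the lowest dual library was above the highest control, which the rule for the largest rises required. RELN (1.23) encodes the extracellular protein reelin, GFRA1 (1.22) a receptor for the growth factor GDNF, and VSIR (1.17) the immune checkpoint protein VISTA. TNFRSF10D, a decoy receptor for the death ligand TRAIL and a p53 target, had 9953, 9175 and 10140 after dual knockdown, 3161, 3404 and 2916 with NT3 and 5777, 4423 and 4994 with NT4 (log2 change 1.29 ± 0.07 SE, adjusted p = 1.19e-11 by limma).

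**Figure D2:**
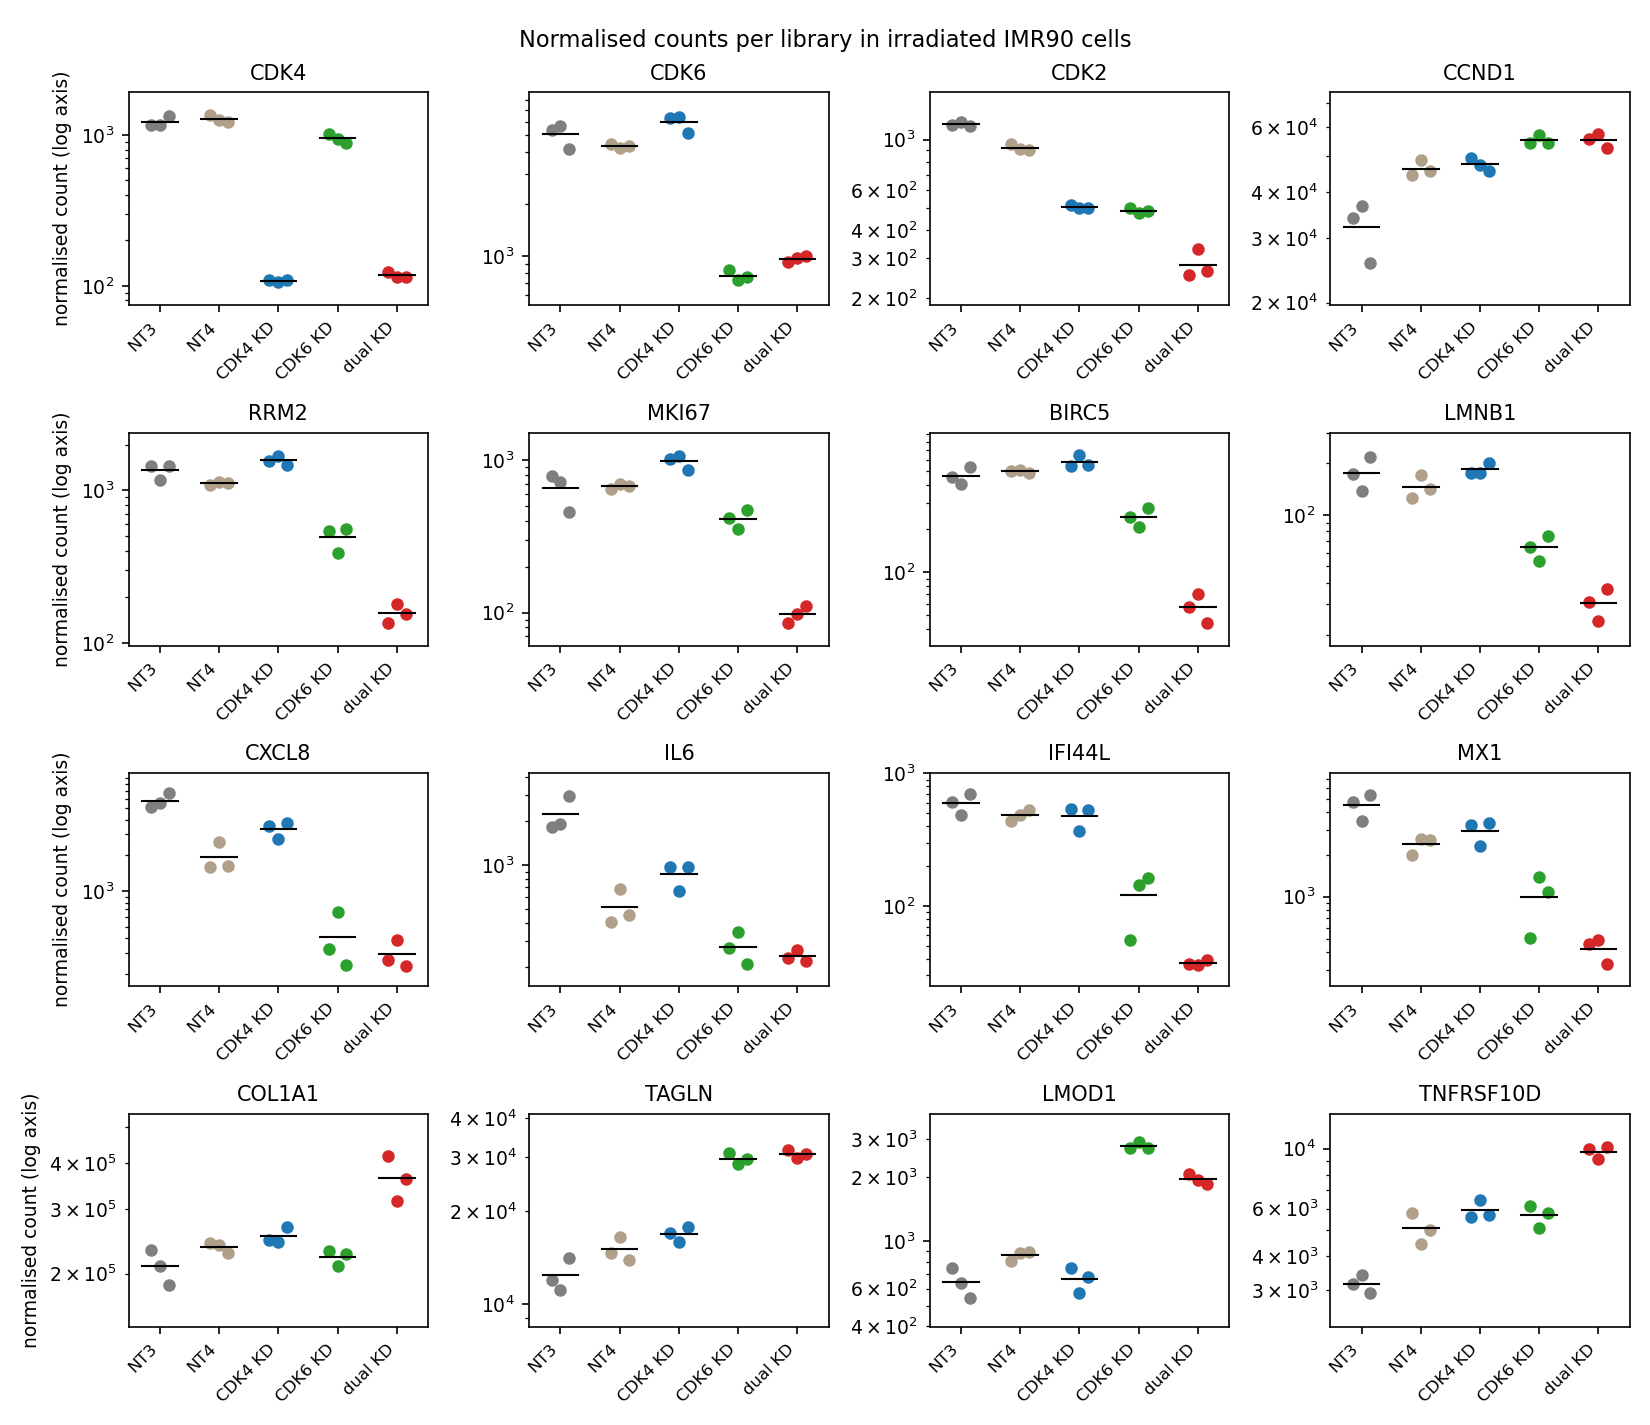
Normalised counts (log axis) of 16 genes in each library, by group, with the group mean as a line. CDK2 stood at 281 on average after dual knockdown, under both single knockdowns (485 and 504) and the controls (1044), and the dual and CDK6 knockdown libraries overlap at CXCL8.

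Within the D cyclin and CDK axis, 4 of 18 tested genes rose, near the 23.0% of all tested genes. In this list 11 fell, the targets CDK4 and CDK6 among them, and 3 did not pass. Its median, targets included, was -0.61 against 0.01 over all tested genes. Besides the targets, CDK2 (chr12:55966830-55972789), the kinase that acts with E and A cyclins in late G1 and S phase, had the largest fall after CCNE2. CDK2 had 1161, 1199 and 1147 with NT3, 955, 907 and 896 with NT4 and 252, 328 and 264 after dual knockdown (log2 change -1.89 ± 0.07 SE, adjusted p = 6.53e-15 by limma). It was at 497, 475 and 482 in the CDK6 knockdown and 513, 497 and 501.5 in the CDK4 knockdown, and the dual libraries were below each (log2 difference -0.79 ± 0.08 SE, adjusted p = 2.45e-07 by limma, and log2 difference -0.85 ± 0.08 SE, adjusted p = 1.69e-08 by limma). CCNE2, an E cyclin, had 8.83, 28.4 and 19.0 in the dual knockdown libraries against 114, 81.6 and 81.3 with NT3 and 71.2, 101.2 and 78.9 with NT4 (log2 change -2.29 ± 0.23 SE, adjusted p = 6.59e-08 by limma), values that rest on 8 to 26 reads after dual knockdown. CCNE1 fell by less (log2 change -0.54 ± 0.12 SE, adjusted p = 0.000623 by limma), with an adjusted p of 0.0997 against NT4 alone by limma. CDC25A, the phosphatase that activates CDK2, fell too (log2 change -1.03 ± 0.11 SE, adjusted p = 1.2e-07 by limma).

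The D cyclins themselves rose. CCND1 had 55660, 57570 and 52700 after dual knockdown, 33970, 36690 and 25610 with NT3 and 44550, 48810 and 45550 with NT4 (log2 change 0.53 ± 0.08 SE, adjusted p = 2.04e-05 by limma), so the dual libraries were above all controls, with a smaller margin over NT4 (0.26) than over NT3 (0.80). CCND2 (0.29) and CCND3 (0.27) rose by less, against both controls. Among CDK inhibitors, CDKN1A (p21) fell from 28150 to 30840 in the controls to 17250, 17120 and 18430 (log2 change -0.74 ± 0.04 SE, adjusted p = 1.52e-11 by limma). It was also lower than in each single knockdown (-0.44 against CDK6 knockdown and -0.25 against CDK4 knockdown, limma adjusted p = 2.29e-06 and 0.000628). CDKN2A (p16 and p14ARF), CDKN2B (p15) and CDKN2C (p18) fell, at -0.68, -0.77 and -1.30 on the log2 scale. CDKN2A and CDKN2B are related in sequence, and how reads shared by both were assigned is not given in the sources used here. CDKN2B had 278, 259.9 and 301 after dual knockdown, 467 to 513 in the controls and 134, 156.5 and 163 after CDK6 knockdown, so the dual libraries lay between these groups (log2 difference 0.89 ± 0.10 SE, adjusted p = 1.66e-06 by limma). CDKN1B (p27) rose (log2 change 0.39 ± 0.10 SE, adjusted p = 0.0025 by limma). CDKN2D (p19), CDK7 and MNAT1 did not pass (0.17, 0.01 and -0.00), and CCNH, the cyclin of CDK7, was lower against the mean (-0.29) but at 0.07 against NT4 alone. CDKN1C was under the filter.

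Of the genes of the RB family and E2F factors, 12 of 18 fell and 1 rose (median -0.31). The transcription factors of the late cell cycle fell most. FOXM1 had 448.5, 477 and 484 with NT3, 585, 546 and 554 with NT4 and 100.4, 85.2 and 100.1 after dual knockdown (log2 change -2.42 ± 0.08 SE, adjusted p = 2.75e-15 by limma), and MYBL2 (-2.41), a subunit of the MuvB complex in S phase, E2F2 (-2.38), E2F8 (-2.04) and E2F1 (-1.30) were lower as well. E2F2 and E2F8 had 0 to 8 reads in the dual libraries and are imprecise. RBL1 (p107) fell (-0.82), whereas RB1, RBL2 and E2F6 were among the 5 that did not pass, and the E2F partner TFDP1 was slightly higher (0.12) but at 0.00 against NT4 alone.

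Genes of DNA replication fell nearly as a group: 41 of 44 were lower, none higher, and 39 were lower against each control, with a median of -1.05. RRM2, which makes deoxynucleotides, had 136, 179 and 155 in the dual knockdown libraries against 1449, 1176 and 1451 with NT3 and 1080, 1143 and 1126 with NT4 (log2 change -2.97 ± 0.10 SE, adjusted p = 5.81e-15 by limma). DTL had 25.4, 17.5 and 21.02 after dual knockdown, 239, 151 and 167.5 with NT3 and 170.3, 203 and 161 with NT4 (log2 change -3.03 ± 0.16 SE, adjusted p = 3.05e-12 by limma). The thymidine kinase TK1 had 399, 355 and 507 with NT3, 374, 436 and 365.5 with NT4 and 68.4, 66.6 and 71.1 after dual knockdown (log2 change -2.54 ± 0.10 SE, adjusted p = 2.61e-14 by limma). In these 3 genes every dual library lay under every control library, which the rule for the largest falls required of RRM2. CDC45 (-2.82) and MCM10 (-2.37), which help to activate the replicative helicase, and the checkpoint mediator CLSPN (-2.76) fell as well. RFC5, POLE and DCK did not pass.

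Of the genes of G2 and mitosis, 58 of 60 were lower against the mean and against each control, 47 of them by more than 1, and a median of -2.05. The survivin gene BIRC5, part of the chromosomal passenger complex, had 57.4, 69.9 and 44.0 in the dual knockdown libraries against 458, 405 and 539 with NT3 and 502, 509.9 and 485 with NT4 (log2 change -3.08 ± 0.12 SE, adjusted p = 2.61e-14 by limma). The proliferation marker MKI67 had 86.1, 98.3 and 111.1 after dual knockdown, 793, 717 and 459 with NT3 and 647, 698 and 679 with NT4 (log2 change -2.73 ± 0.12 SE, adjusted p = 3.39e-13 by limma). DLGAP5 had 269.9, 239 and 268 with NT3, 257, 180.0 and 240.5 with NT4 and 30.9, 39.3 and 27.0 after dual knockdown (log2 change -2.87 ± 0.13 SE, adjusted p = 4.56e-13 by limma). Every dual library was under every control in these genes, which the rule for the largest falls required of BIRC5 and MKI67. The controls were themselves low: MKI67 averaged 665 there and 8163 in the proliferating cells of the series. BUB1 (-2.82), a spindle checkpoint kinase, NCAPG (-2.71), a condensin subunit, and PBK (-2.60) followed. INCENP and SMC2 did not pass.

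Homologous recombination and Fanconi genes fell at 17 of 20, with a median of -1.01, among them RAD51AP1 (-2.44), RAD54L (-2.04), FANCA (-1.70), BLM (-1.60) and BRCA2 (-1.53). XRCC3 rose against the mean (0.34) but did not pass against NT4 alone (limma adjusted p = 0.117). In the lamina and chromatin list, 13 of 21 fell and 2 rose. LMNB1, the lamin that senescent cells lose, had 30.9, 24.0 and 37.0 in the dual knockdown libraries against 172, 138 and 217 with NT3 and 126, 171 and 141 with NT4 (log2 change -2.35 ± 0.15 SE, adjusted p = 7.38e-11 by limma), with a mean of 161 in the irradiated controls and 2580 in proliferating cells. EZH2 (-1.70), the H3K27 methyltransferase, HELLS (-1.48), HMGB2 (-1.09), UHRF1 (-0.93) and TMPO (-0.90) fell too. LMNA and LBR were higher against the mean (0.30 and 0.23), but at 0.04 and -0.16 against NT4 alone.

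**Figure D3:**
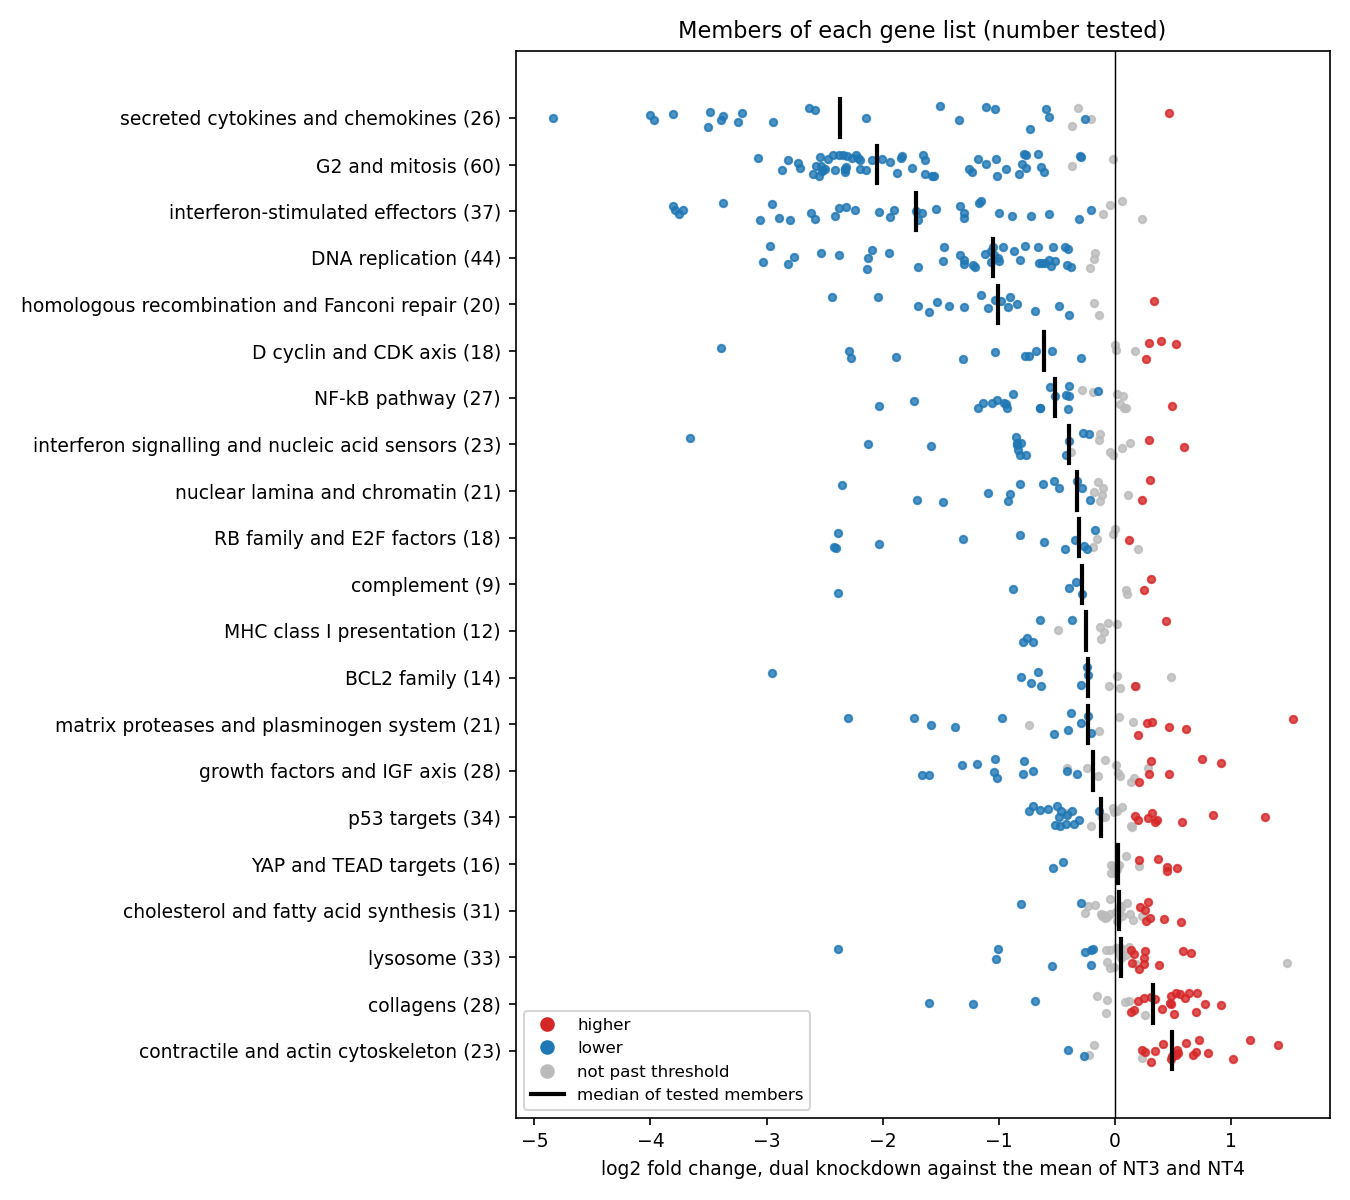
Log2 fold change of each tested member (points) of 21 gene lists after dual knockdown against the mean of NT3 and NT4, red where higher and blue where lower by limma, with the list median as a bar. Cytokines, G2 and mitosis genes and interferon-stimulated effectors have medians of -2.37, -2.05 and -1.72, and contractile genes and collagens 0.49 and 0.33.

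Secreted cytokines and chemokines had the lowest median of all lists against the mean, -2.37, with 22 of 26 lower, 1 higher and 19 lower against each control. CXCL8 (IL-8), a neutrophil attractant, had 263, 389.8 and 234 after dual knockdown, 5131, 5495 and 6662 with NT3 and 1601, 2583 and 1640 with NT4 (log2 change -3.51 ± 0.26 SE, adjusted p = 6.53e-10 by limma). IL1B had 542, 638 and 774 with NT3, 177, 299 and 237 with NT4 and 26.5, 18.6 and 27.0 after dual knockdown (log2 change -3.97 ± 0.23 SE, adjusted p = 1.29e-11 by limma). CXCL5 had 18.8, 13.1 and 14.01 in the dual knockdown libraries against 495, 559.7 and 516 with NT3 and 101.3, 172 and 117 with NT4 (log2 change -4.01 ± 0.27 SE, adjusted p = 1.48e-10 by limma). All dual libraries were under all controls in these 3 genes, which the rule for the largest falls required of CXCL8. In all 3 the NT3 libraries were above the NT4 libraries. The size of the fall therefore depended on the control: the list median was -2.95 against NT3 and -1.57 against NT4, where G2 and mitosis genes (-1.90) and interferon-stimulated effectors (-1.64) had lower medians. CSF3 (G-CSF) had 1, 0 and 0 reads in the dual libraries and 10 to 134 in the controls, so its fitted change (-4.84) is no exact size. CXCL2 (-3.81, 1 to 14 reads after dual knockdown), IL1A (-3.49) and CXCL1 (-3.39) fell as well. CXCL1, CXCL2, CXCL5 and CXCL8 are related genes near each other on chromosome 4, and how reads shared by near-identical copies were counted is not given in the sources used here. IL6, a cytokine commonly measured in senescence, was chosen after its values were seen and had 229.6, 259.9 and 219 after dual knockdown, 1824, 1919 and 2993 with NT3 and 408, 682 and 451 with NT4. VCAM1, an adhesion molecule, rose against the mean (0.46, limma adjusted p = 0.0294) but not against NT3 alone (0.218 by limma). IL7, IL15 and CCL26 did not pass.

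In the NF-kB pathway, 19 of 27 genes fell and 1 rose, with a median of -0.51. Feedback inhibitors and adaptors were among the largest falls. TNFAIP3 (A20), a feedback inhibitor, had 1220, 1489 and 996 with NT3, 709, 949.8 and 682 with NT4 and 186.5, 305 and 230.2 after dual knockdown (log2 change -2.04 ± 0.19 SE, adjusted p = 1.88e-08 by limma). BIRC3, an inhibitor of apoptosis and ubiquitin ligase, had 198, 293 and 242 in the dual knockdown libraries against 748.5, 809 and 794 with NT3 and 699, 923 and 861 with NT4 (log2 change -1.73 ± 0.13 SE, adjusted p = 1.15e-09 by limma). NFKBIZ (-1.18), TRAF1 (-1.13), IRAK2 (-1.06) and the subunit RELB (-1.01) were lower as well. RELA and the kinase genes CHUK, IKBKB and IKBKG did not pass, and the IL-1 receptor partner IL1RAP rose against the mean (0.49) but was at 0.06 against NT3 alone.

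Interferon-stimulated effectors fell at 33 of 37 genes, 31 of them against each control, and none rose (median -1.72). IFI44L had 36.4, 36.0 and 39.0 after dual knockdown, 608, 483 and 695 with NT3 and 436, 487 and 533 with NT4 (log2 change -3.81 ± 0.27 SE, adjusted p = 3.26e-10 by limma). OAS2, an RNA-sensing enzyme, had 1057, 770.4 and 938 with NT3, 444, 654 and 609.8 with NT4 and 75.0, 61.1 and 69.1 after dual knockdown (log2 change -3.37 ± 0.34 SE, adjusted p = 7.08e-08 by limma). MX1, an antiviral GTPase, had 457, 487 and 328 in the dual knockdown libraries against 4791, 3499 and 5337 with NT3 and 1997, 2589 and 2528 with NT4 (log2 change -2.95 ± 0.22 SE, adjusted p = 6.04e-10 by limma). The dual libraries were below every control in the 3 genes, which the rule for the largest falls required. OAS1 (-3.72), its neighbours OAS2 and OAS3 on chromosome 12 (OAS3, -2.89), RSAD2 (viperin, -3.75), CMPK2 (-3.79) and HERC5 (-3.05), which attaches ISG15, fell as well, and the interferon-induced chemokine CXCL10 fell by 2.94. TRIM22, GBP1, GBP2 and LGALS3BP did not pass. Upstream, 14 of 23 genes of interferon signalling and nucleic acid sensing fell and 2 rose (median -0.40). The cytosolic RNA sensors IFIH1 (MDA5, -2.12), DHX58 (LGP2, -1.58) and RIGI (-0.84) and the DNA sensor IFI16 (-0.85) fell, and IRF7 was at 0 to 2 reads in the dual libraries against 12 to 26 in the controls. The receptor gene IFNAR1 rose against the mean (0.29) but not against NT4 alone. JAK1, TYK2, IRF3 and MAVS were among the 7 that did not pass.

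B2M, the class I light chain, fell (log2 change -0.76 ± 0.09 SE, adjusted p = 7.81e-07 by limma), with HLA-B (-0.79), the class I activator NLRC5 (-0.71) and PSME2 (-0.65) among the 5 of 12 class I genes that fell. CANX rose against the mean (0.44) but was at -0.09 against NT4 alone. HLA-C, HLA-F, TAP1, TAPBP, PSMB8 and PSMB9 were among the members under the filter in these libraries, so the list is incomplete, and HLA genes share sequence. Of 9 complement genes tested, 5 fell and 2 rose, the latter a share near the 23.0% of all tested genes. C3, the central component, had 399.5, 445.5 and 296 after dual knockdown, 2960, 3065 and 2313 with NT3 and 1186, 1821 and 1255 with NT4 (log2 change -2.38 ± 0.32 SE, adjusted p = 3.8e-06 by limma), and the complement inhibitor CD55 fell (-0.88), while CLU, an inhibitor of the terminal complex, rose (0.31).

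Matrix protease genes moved in both directions. Of 21 genes of the protease and plasminogen list, 11 fell and 6 rose. The collagenase MMP1 had 6595, 7543 and 7986 with NT3, 5856, 6485 and 6567 with NT4 and 1994, 2190 and 1955 after dual knockdown (log2 change -1.73 ± 0.07 SE, adjusted p = 1.77e-13 by limma). SERPINB2 (PAI-2) had 254, 283 and 278 in the dual knockdown libraries against 1503, 1746 and 1618 with NT3 and 1011, 1194 and 1115 with NT4 (log2 change -2.30 ± 0.10 SE, adjusted p = 1.77e-13 by limma). MMP3 (-1.58) and MMP10 (-1.37), stromelysins beside MMP1 on chromosome 11, and PLAU (-0.97), the urokinase, fell too. The procollagen protease ADAMTS2 had 2859, 2555 and 2571 after dual knockdown, 713, 668 and 521 with NT3 and 1416, 1327 and 1299 with NT4 (log2 change 1.53 ± 0.08 SE, adjusted p = 4.51e-12 by limma), and ADAMTS12 (0.61) and the inhibitor TIMP2 (0.46) rose against both controls. MMP2 and TIMP1 rose against the mean and NT3 but not against NT4 alone (0.19 and 0.28 against the mean), and ADAMTS5 was at 0.32 against the mean but -0.17 against NT3.

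Of 28 growth factor and IGF axis genes, 12 were lower and 6 higher, the latter a share near the 23.0% of all tested genes. The stress cytokine GDF15 had 5293, 5624 and 7139 with NT3, 5056, 6414 and 5253 with NT4 and 1780, 1673 and 2018 after dual knockdown (log2 change -1.66 ± 0.10 SE, adjusted p = 1.33e-11 by limma). The EGF family ligands AREG (-1.32) and EREG (-1.04), BMP2 (-1.19) and the activin subunit INHBA (-1.03) fell. TGFB2 had 1419, 1595 and 1444 in the dual knockdown libraries against 957, 1250 and 709 with NT3 and 652, 712 and 609 with NT4 (log2 change 0.91 ± 0.12 SE, adjusted p = 1.85e-06 by limma), and IGFBP5 (0.75), IGFBP7 (0.46) and IGF1R (0.29) rose against both controls. IGFBP3 lay between the controls, at 19800, 21590 and 19960 after dual knockdown, 33940, 28400 and 38060 with NT3 and 7376, 9319 and 7833 with NT4, so that it was lower against the one (-0.70) and higher against the other (1.33).

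The p53 target list did not move as 1 block: 15 of 34 fell, 9 rose and 10 did not pass, with a median of -0.13. MDM2, which degrades p53, had 3573, 3929 and 3568 after dual knockdown, 6137, 6198 and 5734 with NT3 and 6004, 5861 and 6218 with NT4 (log2 change -0.71 ± 0.05 SE, adjusted p = 4.62e-10 by limma). PPM1D (-0.65) and the CDKN1A described above fell too. ZMAT3 (log2 change 0.58 ± 0.09 SE, adjusted p = 1.54e-05 by limma) and TNFRSF10D rose against both controls. Several rises held against NT3 only: APAF1 was at 0.85 against the mean but 0.19 against NT4, and TP53INP1, against NT3 and NT4, at 1.12 and -0.43. In the BCL2 family, 8 of 14 fell, among them the pro-apoptotic PMAIP1 (NOXA, -0.67), BBC3 (PUMA, -0.64), BMF (-0.73) and BCL2L11 (BIM, -0.81), the last not against NT3 alone, and BCL2L13 rose against the mean (0.17) but not against NT3 alone (0.05). BCL2A1, an NF-kB target, had 0 to 11 reads in the dual libraries and 8 to 45 in the controls, ranges that overlap, and fell by 2.96 in the fit.

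Collagens and contractile genes made up the other direction. Of 28 collagen genes and their processing enzymes, 19 rose, 3 fell and 12 rose against each control (median 0.33). COL1A1, the main collagen chain, had 231800, 210000 and 186700 with NT3, 241700, 239800 and 227200 with NT4 and 419000, 314700 and 360800 after dual knockdown (log2 change 0.71 ± 0.09 SE, adjusted p = 8.32e-07 by limma). LOX, which crosslinks collagen, had 34210, 33500 and 34710 in the dual knockdown libraries against 17110, 14370 and 14050 with NT3 and 26370, 26360 and 26040 with NT4 (log2 change 0.78 ± 0.06 SE, adjusted p = 2.28e-09 by limma). COL11A1 had 726, 815 and 716 after dual knockdown, 464, 424 and 312 with NT3 and 424, 366 and 421 with NT4 (log2 change 0.91 ± 0.10 SE, adjusted p = 3.02e-07 by limma). No dual library overlapped a control in these genes. Under quantile normalization the COL1A1 change was -0.00, a setting in which the most abundant gene takes the same value in every library, and COL1A1 had the highest mean in both groups. COL5A1 (0.70) rose too, while COL7A1 (-0.69), COL5A3 (-1.22) and the sparsely counted COL10A1 (-1.60) fell.

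Contractile and actin genes rose at 18 of 23, 15 of them against each control (median 0.49). TAGLN (SM22), an actin-binding protein of smooth muscle, had 11980, 11150 and 14130 with NT3, 14670, 16560 and 13930 with NT4 and 31460, 29660 and 30600 after dual knockdown (log2 change 1.17 ± 0.07 SE, adjusted p = 9.96e-12 by limma). CNN1 (calponin 1) had 2557, 2360 and 2717 in the dual knockdown libraries against 1180, 1102 and 1254 with NT3 and 1274, 1541 and 1213 with NT4 (log2 change 1.02 ± 0.07 SE, adjusted p = 6.44e-11 by limma). LMOD1, which nucleates actin filaments, had 2058, 1941 and 1854 after dual knockdown, 745, 638 and 541 with NT3 and 812, 877 and 887 with NT4 (log2 change 1.40 ± 0.08 SE, adjusted p = 1.62e-11 by limma). The 3 genes were higher in every dual library than in any control, which the rule for the largest rises required of LMOD1. TPM1 (0.80), CNN2 (0.72) and MYL9 (0.70) rose as well. SMTN (-0.41) and the transcription factor SRF (-0.27) fell. Of YAP and TEAD targets, 5 of 16 were higher and 2 lower, with a median of 0.02, whose sign changed under other settings. F3, the tissue factor, rose (0.54) and NT5E, the ecto-nucleotidase CD73, fell (-0.53) against both controls, whereas ANKRD1 and CCN2 were at -0.65 and -0.15 against NT3 and at 1.55 and 0.89 against NT4.

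Lysosomal and sterol genes had medians near that of all genes. Of 33 lysosome genes 10 rose and 8 fell (median 0.05), and of 31 genes of cholesterol and fatty acid synthesis 7 rose and 2 fell (median 0.03). The sharpest lysosomal fall was in the immune-type cathepsin CTSS, at 234, 248 and 269 with NT3, 141, 171 and 139.5 with NT4 and 37.5, 36.0 and 35.0 after dual knockdown (log2 change -2.39 ± 0.15 SE, adjusted p = 5.66e-11 by limma). The collagen-degrading cathepsin CTSK and the fucosidase FUCA1 (-1.02) fell too, and the lipase LIPA rose (0.65). Among sterol genes, INSIG1, which holds back SREBP, fell (log2 change -0.81 ± 0.08 SE, adjusted p = 2.28e-08 by limma), and LSS (0.57), PMVK (0.42) and STARD4 (0.30) rose against both controls.

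The background for the counts of members called was 23.0% of genes higher and 21.9% lower. The lysosome list (10 and 8 of 33) lay near it. So did the higher members of the growth factor, protease and p53 lists (6 of 28, 6 of 21 and 9 of 34). Near it too were those of the D cyclin and CDK (4 of 18), complement (2 of 9), cholesterol (7 of 31) and YAP and TEAD lists (5 of 16). The lower members of the RB and E2F, lamina, NF-kB and class I lists (12 of 18, 13 of 21, 19 of 27 and 5 of 12) lay above it. Also above it were those of the growth factor, protease and p53 lists (12 of 28, 11 of 21 and 15 of 34). The same held for the complement list (5 of 9) and the D cyclin and CDK list (11 of 18, both targets among them). Those of the repair, interferon signalling and BCL2 lists (17 of 20, 14 of 23 and 8 of 14) were above it as well. Lower members of the cholesterol and the YAP and TEAD lists (2 of 31 and 2 of 16) lay below it. The lists on replication, G2 and mitosis, cytokines, interferon effectors, collagens and contractile genes did not lie near it. Without NT3 replicate 3, 43 of 44 replication genes, all 60 G2 and mitosis genes, 22 of 26 cytokines and 32 of 37 interferon effectors were lower, and 19 of 28 collagens and 18 of 23 contractile genes were higher. Other lists changed as well under that setting. Higher and lower members numbered 13 and 8 in the lysosome list, 9 and 6 in the cholesterol list and 11 and 16 in the p53 list. In the growth factor list they were 8 and 13, and in the lamina list 3 and 14. These lists were chosen with earlier results known and were not tested as lists.

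**Figure D4:**
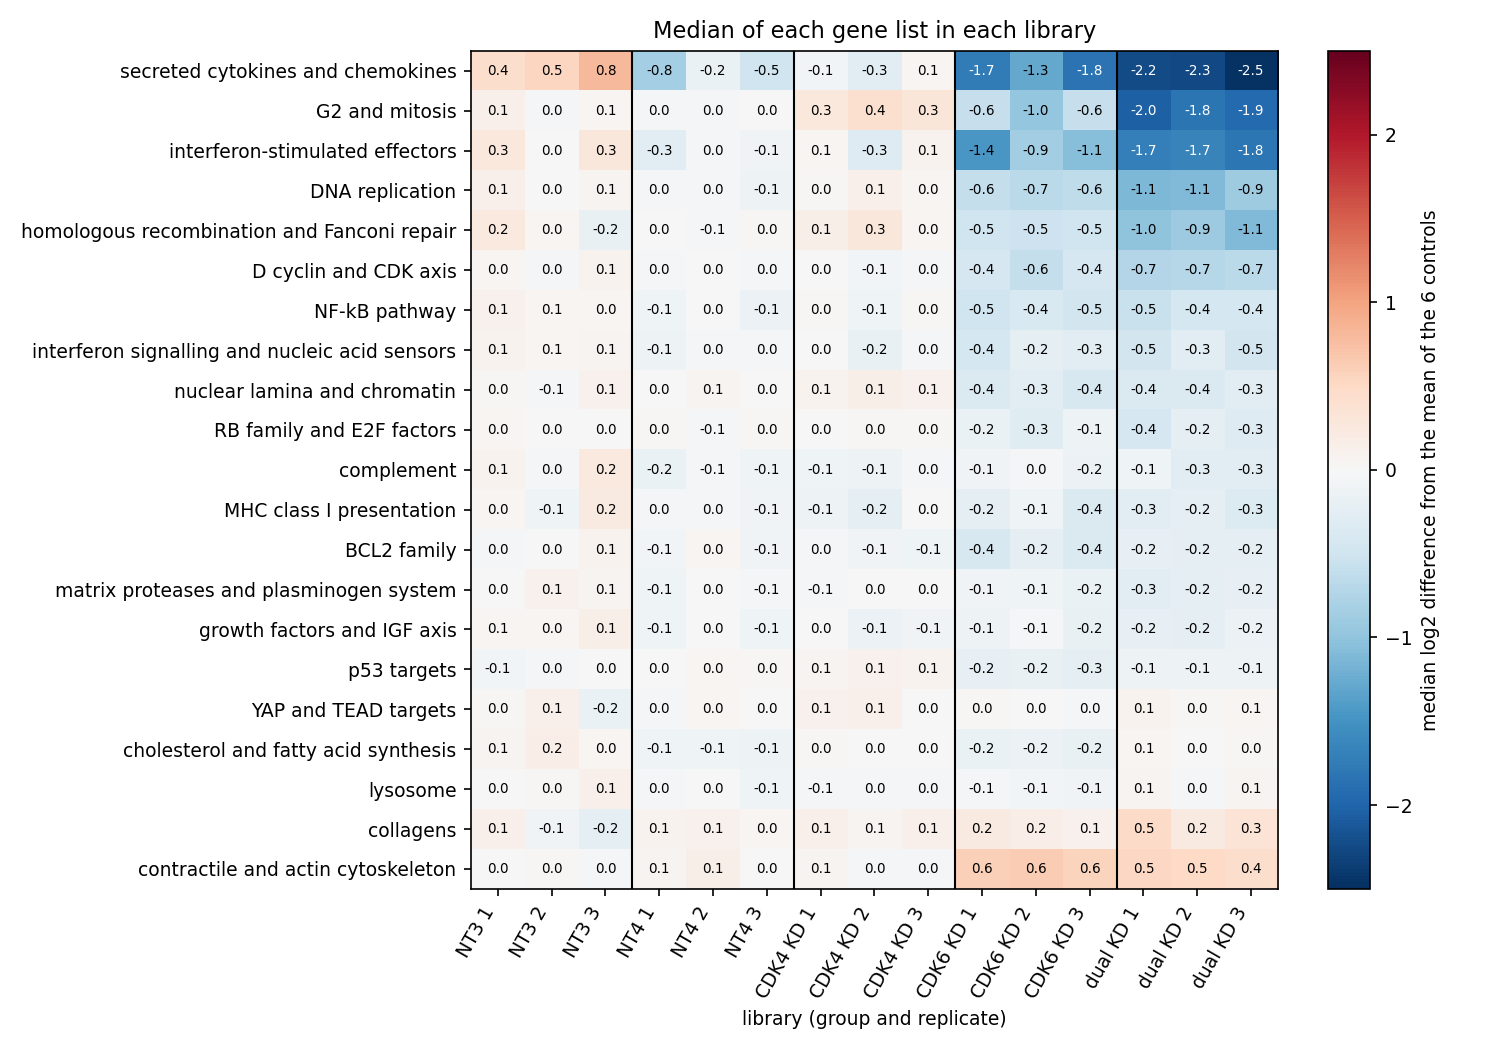
Median log2 difference of each gene list (y axis) from the mean of the 6 controls in each library (x axis), blue for lower and red for higher. G2 and mitosis genes lie lower in the 3 dual knockdown libraries (-2.0 to -1.8) than in the CDK6 knockdown libraries (-1.0 to -0.6).

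The dual knockdown was set directly against the CDK6 knockdown, with no control library in the comparison. Genes higher in the dual knockdown numbered 702 (6.19%), and 807 were lower (7.11%). The lower genes included 51 of 60 G2 and mitosis genes (median -1.18), 18 of 44 replication genes (-0.33) and 9 of 20 repair genes (-0.46). MKI67 was at 419, 355 and 469 after CDK6 knockdown and 86.1, 98.3 and 111.1 after dual knockdown (log2 difference -2.06 ± 0.14 SE, adjusted p = 2.75e-09 by limma). TOP2A, the mitotic topoisomerase, was at 565, 429.6 and 554 after CDK6 knockdown against 161, 149.6 and 195 after dual knockdown (log2 difference -1.61 ± 0.12 SE, adjusted p = 5.93e-09 by limma). RRM2 was at 541.5, 390.4 and 556 after CDK6 knockdown (log2 difference -1.65 ± 0.12 SE, adjusted p = 4.1e-09 by limma). In each of the 3 genes the groups did not overlap, which the rule that picked TOP2A and RRM2 required. Interferon-stimulated effectors were lower at 23 of 37 and higher at 1 (median -0.62), with wide spread among CDK6 knockdown libraries: IFI44L was at 55.0, 143.5 and 162 there (log2 difference -1.52 ± 0.31 SE, adjusted p = 0.00201 by limma).

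In the cytokine list 3 of 26 were lower in the dual than in the CDK6 knockdown and none higher, with a median of -0.27, and in the NF-kB list 2 of 27 were lower and 1 higher (median 0.03). CXCL8 was at 323, 667 and 238 after CDK6 knockdown, a range that holds most of the dual values, and its difference did not pass (log2 difference -0.36 ± 0.30 SE, adjusted p = 0.478 by limma). IL1B (-0.60, limma adjusted p = 0.15) and TNFAIP3 (0.13, 0.749) did not pass either, which does not show that the groups were alike. On the higher side stood collagens, at 13 of 28 (2 lower), and genes of cholesterol and fatty acid synthesis, at 13 of 31 (none lower, median 0.23). COL1A1 was at 230900, 209700 and 226400 after CDK6 knockdown (log2 difference 0.71 ± 0.10 SE, adjusted p = 3.77e-05 by limma). Contractile genes were higher at 2 and lower at 5 of 23; TAGLN did not pass (log2 difference 0.05 ± 0.08 SE, adjusted p = 0.746 by limma) and LMOD1 was lower in the dual knockdown (log2 difference -0.52 ± 0.10 SE, adjusted p = 0.000706 by limma). Among genes with no overlap and a mean in the higher group above 480.3, the largest rises over CDK6 knockdown were CYP1B1, a cytochrome P450 (1.15), the imprinted gene MEST (1.14), ANGPTL4, an inhibitor of lipoprotein lipase (1.13), and ANKRD1 (1.07). Against the mean of both controls, however, CYP1B1 and ANGPTL4 were lower after dual knockdown (-0.36 and -0.29). Against NT4 alone CYP1B1 was higher (0.47, limma adjusted p = 0.00688) and ANGPTL4 did not pass (0.11). Under the same floor the 4 largest falls were CDK4 (-3.00), SV2A, RRM2 and TOP2A, while MKI67 and BIRC5 (-2.08), below that floor, fell further than the last 3. SV2A, a synaptic vesicle protein gene (-1.65), was at 188.5, 188 and 169.8 after CDK4 knockdown and 196.5, 249 and 214 after dual knockdown. Leaving out CDK6 knockdown replicate 3 took the count of differing genes from 1509 to 939, and a fit of these 2 groups alone gave 2444.

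Against the CDK4 knockdown the dual knockdown differed at more genes, 1834 higher (16.2%) and 1704 lower (15.0%). All 44 replication genes and 58 of 60 G2 and mitosis genes were lower (medians -1.07 and -2.30), as were 19 of 26 cytokines (-2.09) and 32 of 37 interferon effectors (-1.64). MKI67 was at 1018, 1076 and 869.6 after CDK4 knockdown (log2 difference -3.31 ± 0.14 SE, adjusted p = 2.51e-13 by limma), BIRC5 at 547, 649.6 and 553.5 (log2 difference -3.35 ± 0.14 SE, adjusted p = 1.59e-13 by limma) and CXCL8 at 3506, 2721 and 3744 (log2 difference -3.51 ± 0.30 SE, adjusted p = 1.06e-08 by limma). The dual libraries were under every CDK4 knockdown library in these genes, which the rule that picked them required. Contractile genes were higher at 17 of 23 and collagens at 13 of 28. LMOD1 was at 748, 569 and 680.2 after CDK4 knockdown (log2 difference 1.56 ± 0.10 SE, adjusted p = 4.82e-11 by limma). IRAG1, a substrate of the cGMP-dependent kinase, was at 635.5, 549 and 582 after CDK4 knockdown, 1849, 1943 and 1691 after dual knockdown and 3557, 3397 and 3363 after CDK6 knockdown (log2 difference 1.63 ± 0.12 SE, adjusted p = 1.1e-09 by limma, and log2 difference -0.91 ± 0.12 SE, adjusted p = 2.12e-05 by limma), so the dual libraries lay between the single ones. CEMIP, a hyaluronan-degrading protein, had the same order, with 2476, 1982 and 2540 after CDK4 knockdown, 7438, 5727 and 6376 after dual knockdown and 11840, 10110 and 11220 after CDK6 knockdown (log2 difference 1.48 ± 0.15 SE, adjusted p = 6.67e-08 by limma, and log2 difference -0.77 ± 0.15 SE, adjusted p = 0.000914 by limma).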

How the data were processed

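Poly(A) RNA was sequenced from 21 libraries of IMR90 cells in 7 groups of 3. The authors deposited 1 table of normalised signal per gene and library; per the submitters' processing notes, which give no role or order, they used Trimmomatic 0.38.1, HISAT2 2.2.1, featureCounts 2.0.3, FastQC 0.74, MultiQC and DESeq2 2.11.40.8 with hg38. The values were whole reads divided by a size factor: in each library 100% were whole within 0.01 read after rescaling, which gave the depths reported. Strand and multi-mapping settings are not given in the sources used here.

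Of 16383 genes, 11347 reached a value of 10 in 3 or more of the 9 dual knockdown and control libraries. Log2(value + 1) was fitted with limma 3.58.1 (trend, R 4.3.3) over all 21 libraries (14 residual degrees of freedom), without covariates. Tests were two-sided, adjusted by Benjamini-Hochberg over all tested genes, at a threshold of 0.05. Symbols were lacking for 19 genes, and a few genes are not reported here. Replicate numbers follow the column order and are names only. The code was tested on simulated data.

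Genes were named by rule: the D cyclin and CDK list; the 12 largest rises and 12 largest falls past the threshold against the mean and each control, without overlap of libraries and with a mean in the higher group above the median gene mean of 480.3; 4 each way in the direct comparisons; and up to 6 members per list with the largest change, plus members that moved against most of their list. The comparison, gene lists and rule were chosen with earlier results of these data known. Members named without a fold change, as not passing or as under the filter, were chosen after their values were seen. Alternatives were edgeR 4.0.16 and DESeq2 1.42.0 on the recovered reads, other scalings, pseudocounts and filters, each control alone, fewer groups, left-out libraries and a block by library code. Gene positions and promoters are from RefSeq (GRCh38.p14).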

Additional observations from a re-analysis of the deposited data

How the results depend on the processing

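The 5098 genes called against the mean numbered 5086 with edgeR and 5098 with DESeq2 on the recovered reads, 3786 with only the groups compared, and 649 with a log2 change over 1 required. Leaving out 1 library gave 4232 to 5924 against the mean, 2278 to 3557 against each control, 939 to 1244 against CDK6 knockdown and 2719 to 3190 against CDK4 knockdown. Dual against CDK6 knockdown gave 2444 genes with only the groups compared. CDK4 remaining was 9.63% with NT3 and 9.2% with NT4 as the only control, and CDK6 remaining 19.1% and 22.3%, where the exact permutation p was 0.1, the smallest that 3 against 3 allows. The higher share of calls was 51.3%, against 54.8% with median centring and 54.6% with quantile normalization, and lower calls were the majority with DESeq2 (2519 higher, 2579 lower), without a filter (2493 and 2573) and with only the groups compared (1883 and 1903), while a mean of at least 100 gave 2507 and 1836. Of 180 named values past the threshold, 139 kept it under all alternatives run for them. Directions turned against NT3 alone for ADAMTS5 (-0.17), ANKRD1 (-0.65), CCN2 (-0.15) and IGFBP3 (-0.70), against NT4 alone for CANX (-0.09), CCNH (0.07), HGF (-0.09), LBR (-0.16) and TP53INP1 (-0.43), and under quantile normalization for COL1A1 (-0.00). The median of YAP and TEAD targets turned under quantile normalization (-0.030) and without NT3 replicate 3 (-0.010), and that of the lysosome list against NT3 (-0.005), under quantile normalization (-0.019) and within the third run of library codes (-0.006). The cholesterol and fatty acid median turned against NT3 (-0.083), under quantile normalization (-0.032), without NT3 replicate 3 (-0.024) and within the second run of codes (-0.012). The cause of these shifts was not tested.

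The columns carry no replicate number of the labels, so no block by that number was possible. A replicate block by runs of consecutive library codes, chosen after seeing the data, gave 4866 genes against the mean, 2635 against each control, 1326 against CDK6 knockdown and 3290 against CDK4 knockdown. Libraries of 1 run did not deviate together (correlations of -0.139 to 0.123, median 0.0334, over 45 pairs, against a median of -0.0218 over 90 other pairs), so the runs were not taken to pair the samples.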

Other observations

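Among the 124 genes that were past the threshold in opposite directions against the 2 controls, 61 were higher than with NT3 and lower than with NT4, and 63 were lower than with NT3 and higher than with NT4. The genes given here were chosen after their values were seen. The dual knockdown libraries lay between the 2 controls in each. CYP1B1, a cytochrome P450, averaged 1610 ± 184.5 (SD, n = 3) after dual knockdown, 3731 ± 958 with NT3 and 1160 ± 78.2 with NT4. PLOD2, a collagen lysyl hydroxylase, averaged 9713 ± 374 (n = 3), 14700 ± 695 and 7059 ± 188. The metallothionein gene MT2A averaged 14620 ± 1364 (n = 3), 20080 ± 4298 and 10170 ± 1689. The order was the opposite for TNC, a matrix glycoprotein, with 8208 ± 807 (n = 3), 5483 ± 1387 and 11980 ± 749, and for PIEZO2, a mechanically gated channel, with 519 ± 56.8, 346 ± 120 and 797.5 ± 54.5.

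CDK7 had values that jumped between libraries of 1 group. It was at 8.83, 4.37 and 213 in the dual knockdown libraries and ranged from 3.89 to 213.5 in the control libraries. TNF and C4A were listed at 0 in all 9 libraries.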
